A study of Mus musculus and Homo sapiens with 22 samples.

Results

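The 7 mouse genes described here tie actin filaments to each other and to the sites where cells hold on to their surroundings, and they were followed across RNA-seq of N2A cells, a mouse neuroblastoma line. They are the filamin genes Flna and Flnc, the alpha-actinin genes Actn1 and Actn4, and the genes of vinculin (Vcl), talin 1 (Tln1) and zyxin (Zyx). All 7 were found among the 22667 mouse identifiers of each file. Their Ensembl identifiers are ENSMUSG00000031328 (Flna, chromosome X), ENSMUSG00000068699 (Flnc, chromosome 6), ENSMUSG00000015143 (Actn1, chromosome 12), ENSMUSG00000054808 (Actn4, chromosome 7), ENSMUSG00000021823 (Vcl, chromosome 14), ENSMUSG00000028465 (Tln1, chromosome 4) and ENSMUSG00000029860 (Zyx, chromosome 6). Flna was picked because its level was lower after Ptbp1 knockdown, and the other 6 were grouped with it by function. The siPtbp1 values below are therefore a description without a test. The U2af65 and nSR100 comparisons did not choose the genes, although siU2af65 and siPtbp1 were set against the same 2 control libraries.

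The study asked how Ptbp1, U2af65 and nSR100 shape alternative splicing, and of its 22 samples 10 were RNA-seq. Ptbp1 binds polypyrimidine tracts and represses many exons, U2af65 (gene U2af2) recognises the 3′ splice site, and nSR100 (gene Srrm4) is a neuronal activator of short exons. Single libraries came from N2A cells given an siRNA pool against Ptbp1 (siPtbp1, letter b) or against U2af65 (siU2af65, letter a), and 2 libraries, a and b, came from cells given a non-targeting pool (siCtrl). All 4 were harvested 48 hours after transfection. A stable lentiviral population carried a hairpin against the nSR100 transcript (shnSR100), and its counterpart carried one against GFP (shGFP), both kept under puromycin at 2 ug/mL. Each hairpin condition is 1 file in which 2 runs of different read length were combined. No clone, animal or donor stands behind these groups, and separate cultures are not stated in the labels for the controls, so p-values reflect no more than how far these libraries differed, and that spread may be technical. The values are reads per gene and RPKM (reads scaled to gene length and to the reads of the library), and they hold no information on exon inclusion. The 2 human 293T files were not analysed for these genes, because 0 of their 19847 identifiers could be paired with a symbol in the tables used here.

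As background, filamins are long dimers that cross-link actin filaments into networks and bind the tails of integrins, the receptors for extracellular matrix. Alpha-actinins cross-link actin filaments into bundles, talin couples integrins to actin and activates them, vinculin joins talin to actin under load, and zyxin gathers where filaments are strained. FLNA is known in brain development because its loss disturbs neuronal migration, and PTBP1 has been reported in neural cells to hold back a poison exon of FLNA transcripts.

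Reads in genes totalled 60220620 to 77138004 per file, and each of the 7 genes had at least 5685 reads in every file. The knockdown of each target showed in its own file, which had the lowest level of the 6. Ptbp1 stood at 8.53 RPKM in siPtbp1 against 158 and 139 RPKM in controls a and b, U2af2 at 18.4 RPKM in siU2af65 against 113 and 105 RPKM, and Srrm4 at 2.50 RPKM in shnSR100 against 11.6 RPKM in shGFP. Of 15 sympathetic neuroblast and neuron markers, 13 reached 1 RPKM in at least 1 file, while the neurofilament genes Nefl and Nefm stayed at or below 0.12 RPKM. Their summed level was 913 RPKM in shnSR100 and 1457 RPKM in shGFP, and 1251 to 1438 RPKM in the siRNA files. Of 12 muscle markers 3 reached 1 RPKM, led by the embryonic myosin gene Myh3 at 50.4 to 64.9 RPKM in all files, and Myod1 was at 0 to 0.01 RPKM. The 10 fibroblast and mesenchymal markers summed to 16.6 RPKM in shnSR100 and 11.4 RPKM in shGFP, and to 1.09 to 2.98 RPKM in the siRNA files. Only 3 of them, Dcn, Pdgfra and Pdgfrb, reached 1 RPKM in any file, and Col3a1 and Postn were at 0 throughout. The 8 endothelial and epithelial markers summed to 5.55 to 10.3 RPKM and the 6 immune markers to 0.62 to 3.83 RPKM.

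In the control siRNA libraries the genes fell into an order of levels per length. Actn1 was highest, at 190 RPKM in control a and 125 RPKM in control b (mean 158 ± 46.1, SD, n = 2). Flna averaged 89.6 ± 2.00 RPKM and Actn4 82.7 ± 0.83 RPKM (SD, n = 2 each). Vcl averaged 61.2 ± 18.6 RPKM and Zyx 51.0 ± 15.7 RPKM (SD, n = 2 each). Tln1 averaged 21.8 ± 0.86 RPKM and Flnc 18.8 ± 6.44 RPKM (SD, n = 2 each). The control libraries overlapped for 2 pairs of neighbours in this order, Vcl with Zyx and Tln1 with Flnc. The other neighbours did not overlap. Flna, Actn4 and Tln1 were close between the controls, whereas Actn1, Vcl and Zyx were higher in control a and Flnc was higher in control b.

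**Figure D1:**
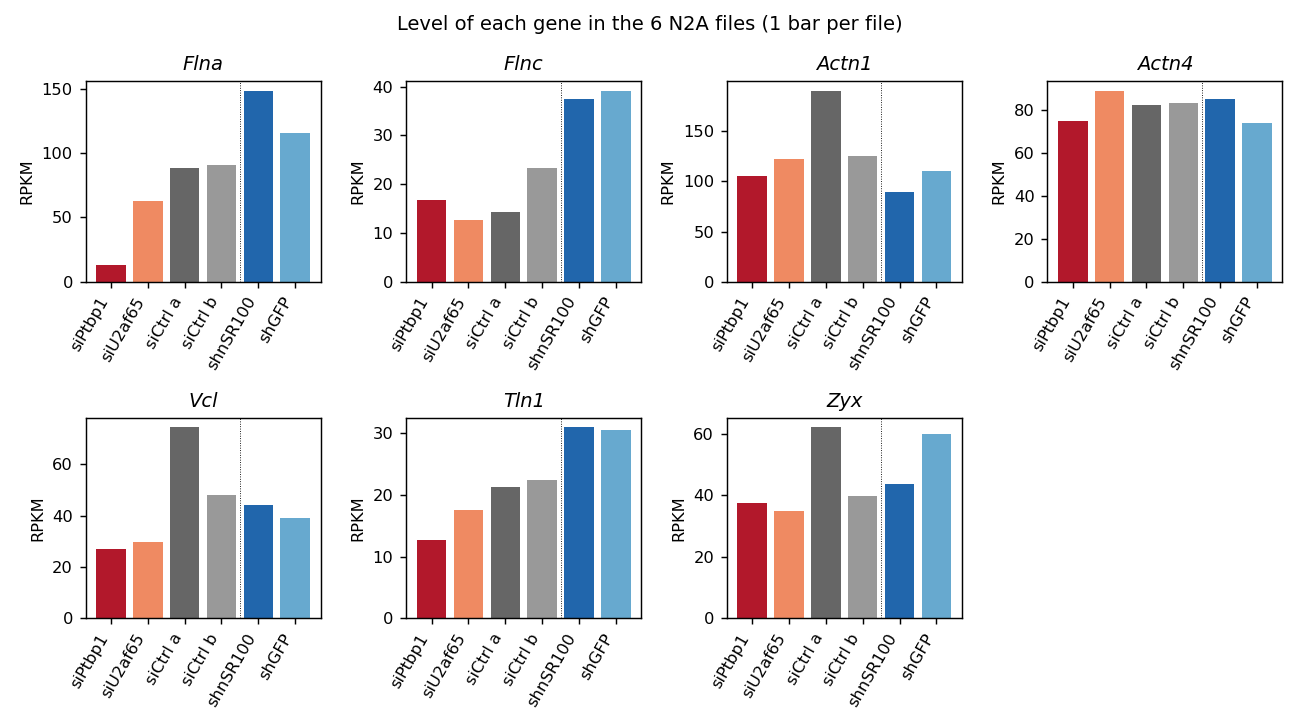
RPKM (vertical axes, from 0) of each of the 7 genes, 1 bar per N2A file, with siRNA files left of the dotted line and hairpin files right of it. Flna stands at 12.7 RPKM in siPtbp1 and at 63.0 to 149 RPKM in the other 5 files, while Actn4 stays between 73.8 and 88.9 RPKM throughout.

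The difference between the controls sets the scale for what follows. On the log2(RPKM + 1) scale, control b minus control a was -0.60 for Actn1, -0.62 for Vcl and -0.63 for Zyx. It was 0.68 for Flnc, 0.05 for Flna, 0.02 for Actn4 and 0.08 for Tln1. Across the 11510 genes averaging 1 RPKM or more over the 6 files, the median was 0.15 and the central 90% ran from -0.38 to 0.67, so Actn1, Vcl, Zyx and Flnc lay outside that range. At 2-fold or more in either direction the controls differed in 1.61% of these genes and in 0 of the 7.

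After Ptbp1 knockdown Flna stood far below every other file. The other genes except Flnc were also below both controls, by less, with Vcl and Tln1 furthest among them. Flna had 12.7 RPKM in siPtbp1, against 88.2 RPKM in control a and 91.0 RPKM in control b. That is 14.5% of control a, and the edgeR log2 fold change on read counts was -2.87 (SE 0.32), the change that chose these genes. In bulk RNA, fewer cells expressing a gene and less of its RNA per cell cannot be told apart. By level Flna ranked 6039 among genes in siPtbp1, against 839 in control a and 774 in control b.

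Vcl had 26.9 RPKM in siPtbp1, against 74.3 RPKM in control a and 48.0 RPKM in control b. Its log2 fold change was -1.25 (SE 0.31), and it was -0.83 against control b alone, the control that shares its letter, and -1.62 against control a alone. Tln1 had 12.7 RPKM in siPtbp1, against 21.2 and 22.4 RPKM in controls a and b, a log2 fold change of -0.83 (SE 0.22) that differed little between the controls. For both genes siPtbp1 lay outside the range of the control pair.

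Actn1, Zyx and Actn4 were also below both controls but lay nearer to them. Actn1 had 105 RPKM in siPtbp1, against 190 RPKM in control a and 125 RPKM in control b. Its log2 fold change of -0.65 (SE 0.34) was -1.01 against control a alone and -0.25 against control b alone. Zyx had 37.5 RPKM in siPtbp1, against 62.1 RPKM in control a and 39.9 RPKM in control b, and its log2 fold change of -0.51 (SE 0.30) was -0.88 against control a alone and -0.08 against control b alone. Most of the distance of both genes from the controls thus came from control a. Actn4 had 74.7 RPKM in siPtbp1, against 82.1 and 83.3 RPKM in controls a and b, a log2 fold change of -0.20 (SE 0.24).

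Flnc, the filamin best known from skeletal and heart muscle, was the 1 member inside the control range. It had 16.7 RPKM in siPtbp1, against 14.2 RPKM in control a and 23.3 RPKM in control b, a log2 fold change of -0.21 (SE 0.27) that was 0.07 against control a alone and -0.48 against control b alone, the control that shares its letter.

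In counts scaled by TMM (edgeR's correction for library composition, given as CPM, counts scaled to library size), 6 of the 7 genes were below both controls in siPtbp1, where 28.9% of all 11237 tested genes were. At 2-fold or more below both controls on the log2(RPKM + 1) scale stood 1 of the 7, Flna, against 0.226% of genes. At 2-fold or more above both stood 0 of the 7, against 0.0695% of genes, and above both in CPM 0 of the 7, against 34.8%. Since the Ptbp1 comparison chose the genes, nothing is read from these shares. Without control b the count was 2, with Vcl added.

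**Figure D2:**
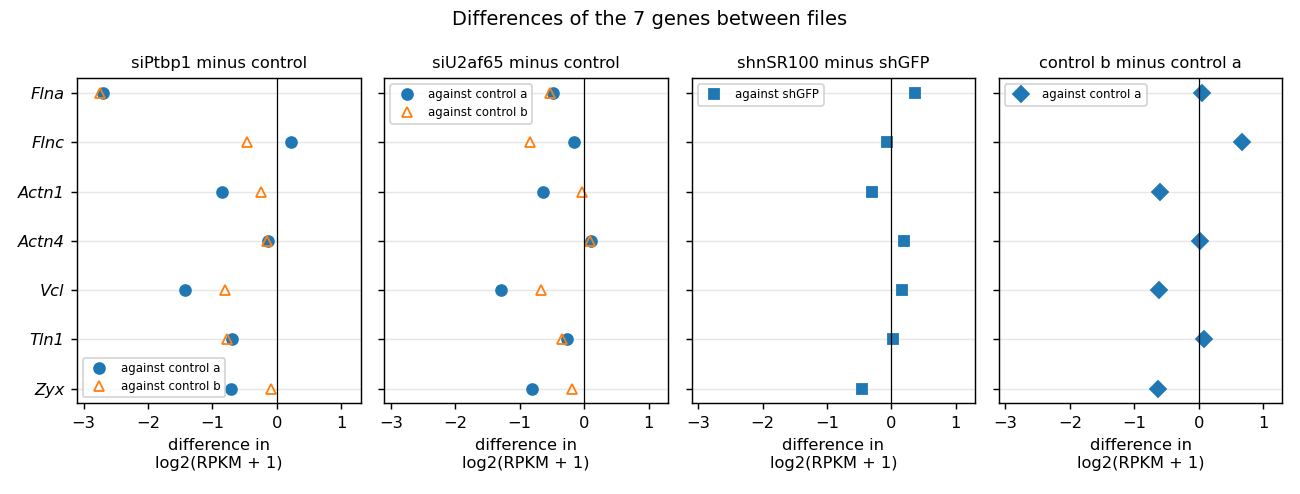
Differences in log2(RPKM + 1) (horizontal axes) of the 7 genes between files, with circles against control a and triangles against control b, squares for shnSR100 minus shGFP and diamonds for control b minus control a. Flna lies near -2.7 in siPtbp1 against either control, whereas Actn1, Vcl and Zyx lie further from control a than from control b in both siRNA knockdowns.

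Summed over Flna and Flnc the level was lower in siPtbp1 and its makeup differed. The sum was 29.4 RPKM in siPtbp1, against 102 RPKM in control a and 114 RPKM in control b. Flna made up 43.3% of that sum in siPtbp1, against 86.1% in control a and 79.6% in control b. Flnc thus made up 56.7% in siPtbp1, against 13.9% and 20.4% in controls a and b, although its own level lay inside the control range. In the other 3 files Flna made up 83.3% (siU2af65), 79.9% (shnSR100) and 74.6% (shGFP). The siPtbp1 file was the only 1 of the 6 in which Flnc was higher per length than Flna. Such shares do not depend on the scaling between libraries, but they would shift if reads were divided between these related genes unequally, and the counting rule is not given in the sources used here.

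**Figure D3:**
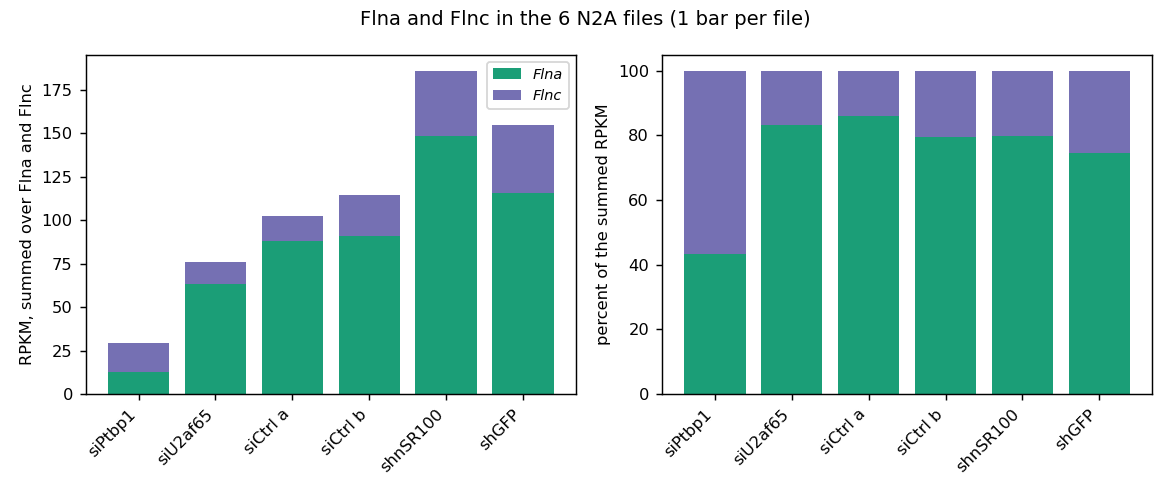
Summed RPKM of Flna and Flnc (left) and the percent of that sum from each gene (right), 1 bar per N2A file. The siPtbp1 bar is the lowest, at 29.4 RPKM, and it is the bar in which Flna takes 43.3%.

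The same comparison for alpha-actinins showed a smaller spread. Actn1 made up 58.4% of the summed RPKM of Actn1 and Actn4 in siPtbp1 and 57.9% in siU2af65, against 69.9% in control a and 60.1% in control b. It made up 51.3% in shnSR100, against 59.96% in shGFP. Actn4, the alpha-actinin found in many non-muscle cells beside Actn1, varied least of the 7 over the 6 files, with a range of 0.26 on the log2(RPKM + 1) scale, against 3.45 for Flna. The ranges were 1.56 for Flnc, 1.43 for Vcl, 1.22 for Tln1, 1.08 for Actn1 and 0.82 for Zyx.

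After U2af65 knockdown none of the 7 genes passed the test over all genes, and Vcl came nearest. Vcl had 29.9 RPKM in siU2af65, against 74.3 RPKM in control a and 48.0 RPKM in control b. Its log2 fold change was -1.15 (SE 0.31, edgeR adjusted p = 0.0612). The adjusted p ran from 4.55e-04 to 0.101 over 6 alternative settings of the edgeR, DESeq2 and limma tests, and Vcl passed in 4 of them. Against control a, which shares the letter of siU2af65, the log2 fold change was -1.48, and against control b it was -0.73.

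The upstream DNA of Vcl is shown because it was the 1 of the 7 genes whose promoter window held a CArG box, the 10-base motif bound by serum response factor, a regulator of actin-related genes. The windows, from RefSeq on build GRCm38.p6, span 250 bases before to 50 bases after each listed transcript start, and the 7 genes had 8 of them, with 2 for Flnc. The 30 bases printed lie on the plus strand at chr14:20929161-20929190, and the box within them, in capitals, starts 227 bases before the Vcl start.
Vcl: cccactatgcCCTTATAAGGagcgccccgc
The motif reads as a CArG box on both strands, and 1.63% of the 32851 promoter windows of mouse genes held one. Counted by gene, 1.81% of 27025 genes had a window with one. Its absence from the other 7 windows says only that these letters are not there, and no binding was measured here.

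The filamins and zyxin had differences of like size after U2af65 knockdown. Flna had 63.0 RPKM in siU2af65, against 88.2 and 91.0 RPKM in controls a and b, a log2 fold change of -0.61 (SE 0.28, edgeR adjusted p = 0.223). Flnc had 12.7 RPKM in siU2af65, against 14.2 RPKM in control a and 23.3 RPKM in control b, a log2 fold change of -0.66 (SE 0.27, edgeR adjusted p = 0.186). Zyx had 34.8 RPKM in siU2af65, against 62.1 and 39.9 RPKM in controls a and b, a log2 fold change of -0.67 (SE 0.30, edgeR adjusted p = 0.222). These 3 genes lay below both controls, and against single controls the log2 fold change ran from -0.996 to -0.24 for Zyx and from -0.92 to -0.33 for Flnc, but only from -0.65 to -0.57 for Flna.

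Over both controls Actn1, Tln1 and Actn4 had smaller log2 fold changes. Actn1 had 122 RPKM in siU2af65, against 190 and 125 RPKM in controls a and b, a log2 fold change of -0.49 (SE 0.34, edgeR adjusted p = 0.423) that was -0.80 against control a alone and -0.08 against control b alone. Tln1 had 17.5 RPKM in siU2af65, against 21.2 and 22.4 RPKM in controls a and b, a log2 fold change of -0.42 (SE 0.21, edgeR adjusted p = 0.277). Actn4 had 88.9 RPKM in siU2af65, against 82.1 and 83.3 RPKM in controls a and b. On TMM-scaled counts Actn4 was between the controls, with a log2 fold change of 0.00 (SE 0.24, edgeR adjusted p = 0.998) whose sign turned to -0.01 with DESeq2's size factors.

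Of the 7 genes, 0 were called after U2af65 knockdown by edgeR, where 5.24% of 11237 tested genes were called. At an unadjusted p under 0.05 there were 2, Vcl and Flnc, where 23.5% of tested genes had one. DESeq2 and limma on log2(RPKM + 1) each called 1, Vcl, where they called 1045 and 1285 of the 11237 tested genes. In TMM-scaled CPM 6 of the 7 were below both controls in siU2af65, against 39.5% of tested genes, and 0 of the 7 were 2-fold or more below both, against 1.79% of genes on the log2(RPKM + 1) scale. Above both in CPM were 0 of the 7, against 40.6% of tested genes, and 2-fold or more above both were 0 of the 7, against 1.71% of genes. The median log2 fold change of the 7 was -0.61, and that of all tested genes 0.00. Replication existed only for the control siRNA, which left 1 residual degree of freedom, and the single siU2af65 library had no spread of its own. edgeR added 8.65 prior degrees of freedom from spread shared across genes. The SE and p of each gene thus rest largely on that shared spread, less on its own 2 controls.

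**Figure D4:**
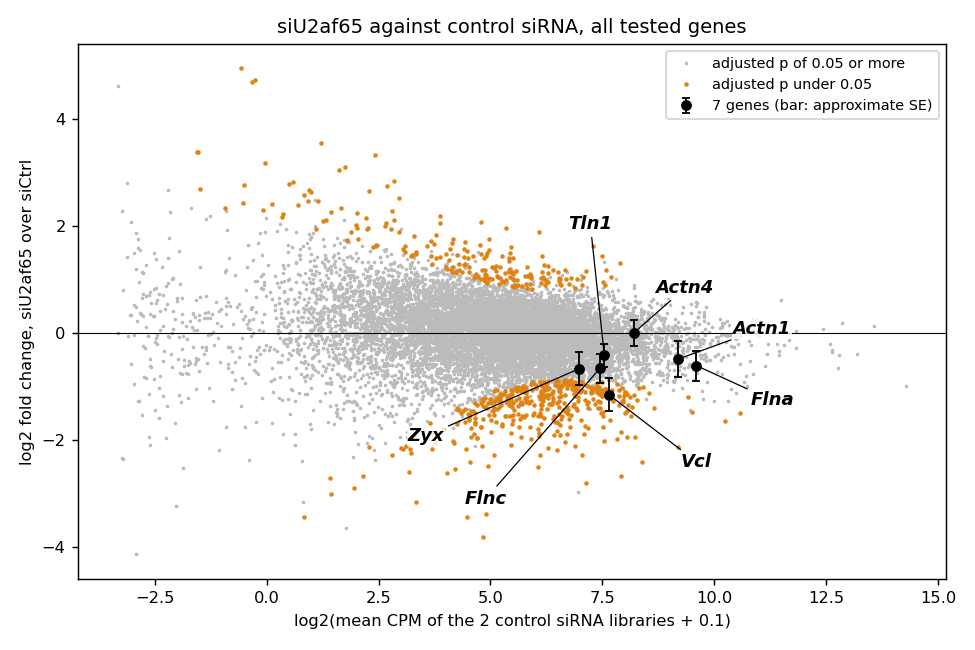
Log2 fold change of siU2af65 over the control siRNA libraries (vertical axis) against log2 of the mean control CPM plus 0.1 (horizontal axis) for 11237 tested genes, with genes called by edgeR in orange and the 7 genes in black with approximate SE. All 7 lie among the more highly expressed genes, and Vcl, at -1.15, is the lowest of them.

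Set side by side, the siRNA knockdowns gave the genes the following log2 fold changes, with both control libraries shared between them. Vcl was at -1.25 in siPtbp1 and -1.15 in siU2af65, Zyx at -0.51 and -0.67, and Actn1 at -0.65 and -0.49. Tln1 was at -0.83 in siPtbp1 and -0.42 in siU2af65. Flna was at -2.87 in siPtbp1 and -0.61 in siU2af65, and Flnc at -0.21 in siPtbp1 and -0.66 in siU2af65. These values average controls that differed for Vcl, Zyx, Actn1 and Flnc. Against control b alone, which shares its letter, siPtbp1 had Vcl at -0.83, Zyx at -0.08 and Actn1 at -0.25. There Tln1 was at -0.81, Flna at -2.83 and Flnc at -0.48. Against control a alone, which shares its letter, siU2af65 had Vcl at -1.48, Zyx at -0.996 and Actn1 at -0.80. There Tln1 was at -0.44, Flna at -0.65 and Flnc at -0.33. Whether the knockdowns differed from each other was not tested.

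Stable nSR100 knockdown was accompanied by small differences in both directions. Flna had 149 RPKM in shnSR100 and 115 RPKM in shGFP, 129% of the control (exact binomial 95% interval for counting error, 128 to 130%). Zyx went the other way, with 43.5 RPKM in shnSR100 and 60.04 RPKM in shGFP, 72.5% of the control (70.3 to 74.7%). Actn1 had 89.6 RPKM in shnSR100 and 111 RPKM in shGFP, 81.0% of the control (79.6 to 82.5%). These intervals cover counting error only, and with 1 file a group the differences have no replicate check.

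The other 4 genes differed less between the hairpin files. Actn4 had 84.9 RPKM in shnSR100 and 73.8 RPKM in shGFP, 115% of the control (113 to 117%). Vcl had 44.1 RPKM in shnSR100 and 39.2 RPKM in shGFP, 113% of the control (109 to 116%). Flnc, at 37.4 RPKM in shnSR100 and 39.2 RPKM in shGFP, was at 95.4% (93.6 to 97.1%), and Tln1, at 30.9 and 30.5 RPKM, at 101% (99.2 to 104%). In all, 4 genes were higher and 3 lower in shnSR100, with a median difference of 0.02 on the log2(RPKM + 1) scale, against 0.04 over 11510 genes. At 2-fold or more in either direction there were 0 of the 7, against 0.851% of all genes (0.591% lower and 0.261% higher). All 7 differences lay within the central 90% of the genes, from -0.51 to 0.48. The neuroblast and neuron marker sum was lower in shnSR100, at 913 RPKM against 1457 RPKM in shGFP, with Tubb3 at 193 against 324 RPKM and Stmn2 at 146 against 287 RPKM, and its part in these differences was not tested.

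Some of the 7 genes differed in level between the hairpin files and the siRNA files. Flna, Flnc and Tln1 were higher in both hairpin files than in any siRNA file, with the lower hairpin file at 1.27, 1.60 and 1.36 times the highest siRNA file. The share of all genes with such a separation was not counted, so it is not read as a trait of the 7. Outside the 7, Tln2 had it too, at 19.8 RPKM in shnSR100, 20.95 RPKM in shGFP and at most 8.20 RPKM in the siRNA files. The integrin gene Itgb1 did not. Actn1 in both hairpin files (89.6 RPKM in shnSR100 and 111 RPKM in shGFP) was below both siRNA controls, and so was Vcl (44.1 and 39.2 RPKM). Zyx and Actn4 in the hairpin files overlapped the range of the siRNA files. The muscle marker sum was 78.2 RPKM in shnSR100 and 78.7 RPKM in shGFP, and 51.9 to 68.8 RPKM in the siRNA files. Of its 12 genes, Des (desmin, 7.56 and 15.1 RPKM) and Tnnt2 (5.28 and 6.89 RPKM) were higher in both hairpin files than in any siRNA file, at most 1.14 and 3.12 RPKM there, while Myh3 overlapped and Myod1 and Myh6 were at or near 0. The fibroblast marker sum was also higher in the hairpin files, as given above, and it rested largely on Dcn, Pdgfra and Pdgfrb. The part of these markers in the levels was not tested, and the delivery method, the selection and the combined runs cannot be told apart.

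Likeness to Flna was measured as the root mean square distance between log2(RPKM + 1) profiles over the 6 files, each centred on its own mean, among 3890 other genes with a range of at least 1. The 5 nearest were Fbln2 (0.34), BC037034 (0.46), Cald1 (0.52), Ptbp1 itself (0.53) and Nutf2 (0.61). Fbln2, which encodes the matrix protein fibulin 2, had 12.8 RPKM in siPtbp1, 64.0 in siU2af65, 58.2 and 73.4 in controls a and b, 145 in shnSR100 and 168 in shGFP. Cald1, which encodes the actin-binding protein caldesmon, had 20.5 RPKM in siPtbp1, 53.6 in siU2af65, 53.4 and 47.3 in controls a and b, 98.3 in shnSR100 and 117 in shGFP. Nutf2, a nuclear transport factor gene, had 6.73 RPKM in siPtbp1, 14.8 in siU2af65, 15.0 and 13.2 in controls a and b, 29.4 in shnSR100 and 20.9 in shGFP. BC037034 rested on 0 to 3 reads per file and is only named. The points are 6 files of the same cell line. They include the siPtbp1 value that chose Flna, so no test or support is drawn from these distances.

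Measured the same way, none of the other 6 genes was among those nearest to Flna. Tln1 was closest of them at 0.75, followed by Vcl (0.92), Flnc (0.95), Zyx (1.01), Actn4 (1.09) and Actn1 (1.15). The 15 pairs without Flna ran from 0.33 to 0.86. The nearest were Actn1 with Zyx, Actn1 with Actn4 and Vcl with Zyx, each at 0.33, and Actn1 with Vcl at 0.34, and the farthest was Flnc with Actn1. Flnc was nearest to Tln1, at 0.37.

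Lists of related genes were examined to place the 7 among their partners. They were built around genes that the Ptbp1 comparison chose, so nothing is read from the siPtbp1 shares of any list. Of 11 relatives of the 7, 9 were tested, and after U2af65 knockdown 1 fell and 0 rose, with a median log2 fold change of -0.30. Of all tested genes 3.42% fell and 1.82% rose. Fblim1, which encodes migfilin, a filamin-binding adaptor at adhesions, had 1.14 RPKM in siU2af65, against 4.68 and 4.12 RPKM in controls a and b, so that its log2 level fell by 2.06 (SE 0.44, adjusted p = 0.0327 in edgeR). It was well below either control. In siPtbp1 8 of the 9 had negative log2 fold changes, where 47.8% of all tested genes did, with a median of -0.29. The largest were Lpp, a zyxin relative, at -1.07 (SE 0.28) and Fblim1 at -0.90 (SE 0.41). Of the 8, Trip6 (-0.13, SE 0.49), Limd1 (-0.06, SE 0.30), Wtip (-0.29, SE 0.39) and Ctnna2 (-0.17, SE 0.38) lay within their SE of 0.

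Of 20 integrin genes 11 were tested. After U2af65 knockdown 1 fell and 0 rose (median -0.36), where 3.42% and 1.82% of all tested genes did. Itga1, a collagen-binding integrin subunit gene, had 4.01 RPKM in siU2af65, against 11.8 and 16.5 RPKM in controls a and b, a log2 level that fell by 1.91 (SE 0.26, adjusted p = 0.00990 in edgeR). It had 12.03 RPKM in siPtbp1, which lay inside the control range. The integrins with the largest values in siPtbp1 were Itga8, at 0.82 (SE 0.38), and Itga6, at -0.39 (SE 0.26). There 6 of the 11 were negative, where 47.8% of all tested genes were, and the list median was -0.01.

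Among 33 adhesion adaptor and kinase genes 25 were tested. After U2af65 knockdown 2 fell and 0 rose (median -0.07), where 3.42% and 1.82% of all tested genes did. Tgfb1i1, which encodes the paxillin relative Hic-5, had 5.98 RPKM in siU2af65, against 16.2 and 11.95 RPKM in controls a and b, a log2 level that fell by 1.35 (SE 0.32, adjusted p = 0.0422 in edgeR). Parvb, which encodes beta-parvin, had 15.3 RPKM in siU2af65, against 28.5 and 26.8 RPKM in controls a and b, a log2 level that fell by 0.96 (SE 0.22, adjusted p = 0.0422 in edgeR). The list's largest values in siPtbp1 were -0.97 for Tgfb1i1 (SE 0.31) and -0.75 for the alpha-parvin gene Parva (SE 0.28). There 16 of the 25 were negative, where 47.8% of all tested genes were, and the list median was -0.08.

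Among 30 other actin filament binding genes 25 were tested, and after U2af65 knockdown 1 fell and 0 rose (median -0.32). Coro1b, a coronin gene, had 21.8 RPKM in siU2af65, against 42.2 and 40.7 RPKM in controls a and b, a log2 level that fell by 1.03 (SE 0.23, adjusted p = 0.0367 in edgeR). In siPtbp1 Lima1, which encodes the actin cross-linker EPLIN, was at -1.45 (SE 0.31) and the scaffold gene Iqgap1 at -1.04 (SE 0.26). There 17 of the 25 were negative, where 47.8% of all tested genes were, and the list median was -0.18. Lima1 had 3.94 RPKM in siPtbp1, against 7.99 RPKM in control a and 13.1 RPKM in control b. Over all 11237 tested genes 3.42% fell and 1.82% rose after U2af65 knockdown, and the median was 0.00 there and 0.01 in siPtbp1. Of the 5 genes that fell in these lists, 4 kept the call in 5 alternatives each, and Itga1 in all 6. Parvb, Coro1b and Tgfb1i1 lost it when testing was limited to genes averaging 5 RPKM or more, a setting in which Fblim1 was not tested.

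**Figure D5:**
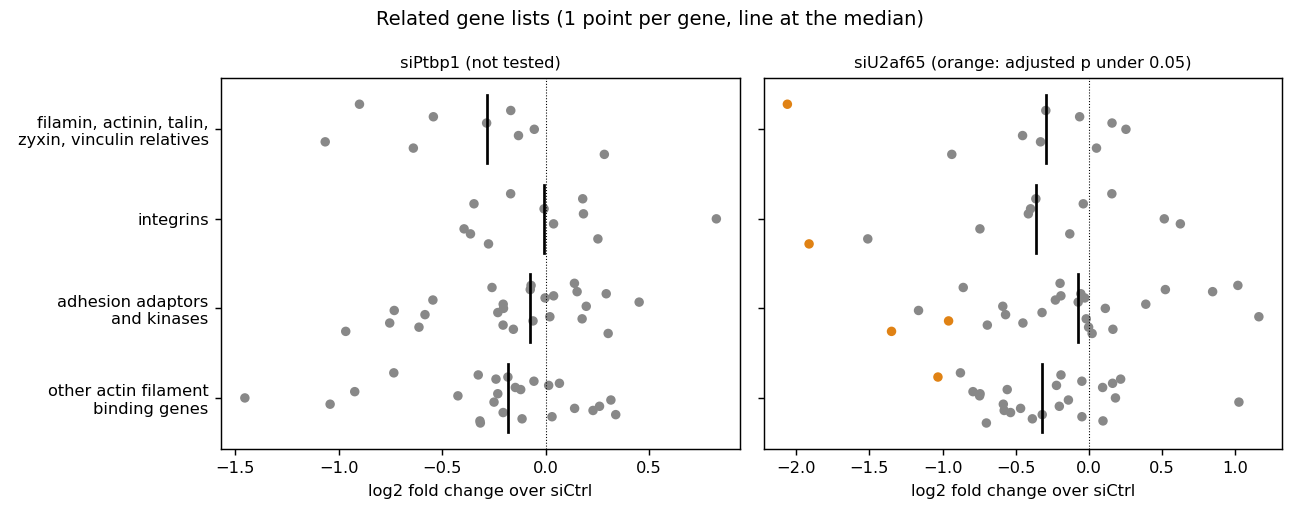
Log2 fold change over the control siRNA libraries (horizontal axes) of the tested genes of the 4 related lists, in siPtbp1 (left, not tested) and siU2af65 (right), 1 point per gene with a line at each list's median. The 5 genes called after U2af65 knockdown are orange and all lie below 0.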

How the data were processed

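Values came from 6 deposited N2A files with, per Ensembl gene, the read count and the RPKM that the authors computed. RPKM equalled the deposited count divided by a fixed length per gene and by the file total, within 0.272% over 5403 genes. A blank count was read as 0, and 1114 genes without an RPKM were left out of RPKM descriptions. Per the submitters' processing notes, the tools include bedtools 2.17.0 and Bowtie, and the builds are mm9 and hg19, in roles not stated there. Neither the counting rule nor the use of strand is given in the sources used here, so reads shared by paralogs or overlapping genes could not be separated. Symbols matched 20759 of 22667 identifiers.

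The siRNA counts were tested with edgeR 4.0.16 (R 4.3.3), quasi-likelihood, TMM, on the 11237 genes averaging 1 RPKM or more over the 4 siRNA libraries, with Benjamini-Hochberg adjusted p at a threshold of 0.05. The SE is approximate, the log2 fold change over the square root of its F statistic. DESeq2 1.42.0 and limma 3.58.1 served as alternatives. The code was tested on simulated data. The members and lists were chosen with earlier results of these data known. Named genes were the 7, the targeted genes, list members called after U2af65 knockdown, each list's 2 largest values in siPtbp1, and the 5 profiles nearest to Flna. Marker genes were named from the marker lists after their values were seen. 1 related gene was left out of the lists and is not reported here, and CLIP libraries were not analysed.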

Additional observations from a re-analysis of the deposited data

How the results depend on the processing

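The number of genes called after U2af65 knockdown depended on the test. Of 11237 tested genes it was 589 in edgeR (205 higher, 384 lower) and 781 with RLE size factors. DESeq2 called 1045 of the 11237 (339 higher, 706 lower). Of the same 11237, limma called 1285 on log2(RPKM + 1) (655 higher, 630 lower) and 1261 on log2(RPKM + 0.1) (617 higher, 644 lower). The number of tested genes changed in the other settings. With no filter on low values 1649 of 17622 tested genes were called (688 higher, 961 lower). Over genes averaging 5 RPKM or more, 257 of 8923 were called (74 higher, 183 lower). Of the 7 genes, 0 were called in edgeR, with RLE factors and over genes averaging 5 RPKM or more, and 1, Vcl, with DESeq2, with limma at either pseudocount and with no filter. The cause was not tested.

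Without one of the control libraries the count of the 7 genes past 2-fold in siPtbp1 ran from 1 to 2, the second being Vcl without control b. Leaving out control a moved the siPtbp1 value of Zyx from -0.51 to -0.08 and of Actn1 from -0.65 to -0.25, and the siU2af65 value of Actn1 from -0.49 to -0.08. Leaving out control b moved them to -0.88, -1.01 and -0.80. No test could be made with 1 control, since no residual degrees of freedom remain. No paired analysis was possible because each knockdown shares its letter with 1 control library only, and each hairpin file combines its runs.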
